A study of Mus musculus with 18 samples.

Results

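The aryl hydrocarbon receptor genes described here are 7 of the 39179 genes listed for 18 RNA sequencing libraries, taken by symbol. They are Ahr, the receptor itself, its dimer partner Arnt, the repressor Ahrr, the cytochrome P450 genes Cyp1a1 and Cyp1b1, the ADP-ribosyltransferase gene Tiparp and the aldehyde dehydrogenase gene Aldh3a1. All 7 matched 1 entry each, and 3 of them (Ahr, Arnt and Tiparp) had enough counts to be tested. The other 4 had at most 20 counts in any library of at least 71970499 gene counts.

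The libraries came from MC38, a line derived from a colon adenocarcinoma of C57BL/6 mice. Cells with intact Apc, a tumour suppressor gene, and cells with Apc deleted were each sequenced untreated and after doxycycline at 1 µM for 24 or 48 h, which gave 6 groups of 3 libraries. Doxycycline switched on a hairpin against Tdo2, the dioxygenase that opens the kynurenine route of tryptophan breakdown, so the series asked how cells with and without Apc respond when that enzyme is knocked down. The titles name the hairpin for the treated libraries only, whereas the protocol speaks of hairpin cells with and without doxycycline. Every treated group had the hairpin, and the hairpin and the drug cannot be told apart. Neither how Apc was deleted nor whether each line is 1 clone is given in the sources used here.

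The aryl hydrocarbon receptor is a ligand-activated transcription factor of the bHLH-PAS family. It waits in the cytoplasm with HSP90 and other chaperones, and with a ligand bound it moves to the nucleus, pairs with ARNT and binds DNA at elements built around the core GCGTG. Kynurenine is among its natural ligands. CYP1A1 and CYP1B1 oxidise many of the compounds that activate the receptor, while AHRR and TIPARP restrain it, so several of its best known targets close a negative feedback loop. In the gut it is known for its part in barrier upkeep and in immune cells of the mucosa.

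The core GCGTG was searched on both strands in the 250 bases before the gene start in RefSeq (GRCm38.p6), which has a window for 5 of the 7 genes. Those windows for Ahrr, Arnt, Cyp1a1, Cyp1b1 and Tiparp each held at least 1 match, as did 28.2% of all 32851 windows. A longer form, TNGCGTG, which contains the core, was found only in the Ahrr window among the 5 and in 4.1% of all windows. A match is a description of letters and not a site. Cyp1a1 is shown whole because its counts separated the lines, and Ahrr because it holds 3 matches. Matches to the core or its reverse complement CACGC are in capitals, and each sequence reads in the direction of its gene.
Cyp1a1, chr9:57697363-57697612, plus strand: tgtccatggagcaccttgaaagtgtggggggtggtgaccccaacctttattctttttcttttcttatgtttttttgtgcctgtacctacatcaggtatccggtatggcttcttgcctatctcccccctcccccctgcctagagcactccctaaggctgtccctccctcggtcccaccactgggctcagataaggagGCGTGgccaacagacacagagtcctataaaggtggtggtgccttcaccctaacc
Ahrr, chr13:74292332-74292581, minus strand: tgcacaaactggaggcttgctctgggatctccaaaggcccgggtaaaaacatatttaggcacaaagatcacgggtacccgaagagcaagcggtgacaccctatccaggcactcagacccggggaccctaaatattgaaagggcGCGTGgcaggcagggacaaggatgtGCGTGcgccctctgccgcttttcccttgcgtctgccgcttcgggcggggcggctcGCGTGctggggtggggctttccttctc
In Cyp1a1 the match began 54 bases before the start, and in Ahrr the matches began 107, 82 and 27 bases before it, the last within a TCGCGTG. For the other 3 genes the 45 bases around the match are shown.
Arnt, chr3:95434341-95434385, plus strand: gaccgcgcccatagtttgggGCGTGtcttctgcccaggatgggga
Cyp1b1, chr17:79715113-79715157, minus strand: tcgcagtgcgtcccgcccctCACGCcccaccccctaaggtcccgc
Tiparp, chr3:65528257-65528301, plus strand: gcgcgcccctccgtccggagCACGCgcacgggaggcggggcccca
In Cyp1b1 and Tiparp the core lay on the other strand. The windows of Cyp1a1, Arnt, Cyp1b1 and Tiparp thus held 1 match each. Their mean levels over all libraries were 0.0130, 13.7, 0.000599 and 60.4 RPKM (reads scaled for transcript length and for library size). Bases farther than 250 before the start were not searched.

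Of the whole series, 15006 genes were tested, and gene counts per library ranged from 71970499 to 111948430. Tdo2 had 6 to 29 counts per library (64, 49 and 71 summed over 3 libraries in APC-intact cells without doxycycline, at 24 and at 48 h, and 46, 34 and 28 in APC-deleted cells), and it passed the test in no comparison, so these counts do not check the treatment labels. At 48 h it had 8, 7 and 13 counts in the APC-deleted libraries and 20, 22 and 29 in the APC-intact ones. Apc was lower in APC-deleted cells without doxycycline (75.3 against 111.6 CPM over the pooled libraries; CPM are counts scaled for library size). The APC-deleted libraries still had 5705 to 9295 Apc counts each, so counts over the whole gene do not show the deletion itself. The defining colon epithelial genes Epcam and Cdx2 had 0 to 1 and 0 counts, and the 10 epithelial markers together reached 1.04 to 2.40 RPKM. The fibroblast genes Col1a1 and Dcn averaged 101 and 219 RPKM, while Lum and Thy1 of the same list averaged 0.126 and 0.000267 RPKM. File names carry a designation read here as 2 runs: run 1 held both untreated groups and APC-intact at 24 h, and run 2 the other 3 groups. Replicate 1 of APC-intact at 24 h and replicate 2 of APC-deleted at 48 h stood apart from the other libraries. Triplicates are called biological in the labels, but separate cultures are not named. The p-values therefore measure how far these samples spread, and that spread may be technical.

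Per unit of transcript length, Tiparp (chromosome 3, 65528410 to 65555145, plus strand, mm10; ENSMUSG00000034640) had the highest level of the 7 genes. It averaged 60.4 RPKM over the 18 libraries, above 95.1% of tested genes. Arnt (chromosome 3, 95434388 to 95497240, plus strand; ENSMUSG00000015522) averaged 13.7 RPKM and Ahr (chromosome 12, 35497974 to 35535038, minus strand; ENSMUSG00000019256) 4.99 RPKM, above 74.9% and 52.6% of tested genes. The other 4 genes stood far below. Aldh3a1 (chromosome 11, 61207537 to 61218421, plus strand; ENSMUSG00000019102) averaged 0.0165 RPKM and Cyp1a1 (chromosome 9, 57697613 to 57703822, plus strand; ENSMUSG00000032315) 0.0130 RPKM. Ahrr (chromosome 13, 74211118 to 74292331, minus strand; ENSMUSG00000021575) averaged 0.000838 RPKM and Cyp1b1 (chromosome 17, 79706953 to 79715041, minus strand; ENSMUSG00000024087) 0.000599 RPKM. The receptor and its partner were thus present in every library, while 2 of the genes most often read as signs of receptor activity, Ahrr and Cyp1b1, had 17 and 7 counts over all 18 libraries together.

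The receptor gene Ahr was higher in APC-deleted than in APC-intact cells, and higher again in APC-deleted cells given doxycycline. In CPM (counts scaled for library size), its level without doxycycline was 32.2, 30.6 and 34.2 in the APC-intact libraries and 38.5, 38.3 and 37.5 in the APC-deleted libraries. Every APC-deleted library lay above every APC-intact one. After 24 h of doxycycline the APC-intact libraries had 36.9, 32.7 and 39.3 CPM, and the APC-deleted libraries 55.5, 50.9 and 52.6 CPM. After 48 h they had 35.4, 34.7 and 37.1 CPM against 49.8, 43.0 and 51.1 CPM. All 6 treated APC-deleted libraries were above the 3 untreated ones and above every APC-intact library, while in APC-intact cells the 24 h and untreated groups overlapped and the 48 h group lay just above the untreated one. The order of the group means was APC-deleted at 24 h (53.0 ± 2.29 CPM, SD, n = 3), APC-deleted at 48 h (47.95 ± 4.35), APC-deleted untreated (38.1 ± 0.531), APC-intact at 24 h (36.3 ± 3.34), APC-intact at 48 h (35.7 ± 1.25) and APC-intact untreated (32.3 ± 1.81). The first pair in that order, the APC-deleted untreated and APC-intact 24 h groups, and the 24 and 48 h APC-intact groups had overlapping libraries. The highest mean was 1.64-fold the lowest.

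Arnt, which encodes the partner that the receptor shares with the hypoxia factors, rose with doxycycline in both lines and was also higher in APC-deleted cells. Its untreated level was 122.9, 112.3 and 119.5 CPM in APC-intact libraries and 124.8, 136.7 and 134.9 CPM in APC-deleted libraries. At 24 h it was 142.2, 132.5 and 142.9 CPM in APC-intact cells against 162.9, 159.7 and 167.0 CPM in APC-deleted cells. At 48 h it was 150.3, 137.4 and 141.7 CPM against 176.8, 156.6 and 177.6 CPM. In each line all 6 treated libraries lay above the 3 untreated ones. The lines did not overlap at any time, although the untreated groups were separated by less than 2 CPM. By mean, the order ran from 170 ± 11.9 CPM (SD, n = 3) in APC-deleted cells at 48 h through 163 ± 3.66 at 24 h, to 143 ± 6.55 and 139 ± 5.81 in APC-intact cells at 48 and 24 h, 132 ± 6.42 in untreated APC-deleted cells and 118 ± 5.38 in untreated APC-intact cells. The 24 and 48 h groups overlapped within each line, as did APC-intact cells at 24 h and untreated APC-deleted cells, and the span was 1.44-fold.

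Tiparp encodes a mono-ADP-ribosyltransferase that marks the receptor and dampens its signal, and it is itself a receptor target. Its untreated level was 273.7, 279.2 and 262.2 CPM in APC-intact libraries and 358.2, 317.7 and 303.2 CPM in APC-deleted libraries. At 24 h it was 266.8, 251.3 and 298.4 CPM against 356.2, 336.2 and 381.6 CPM. At 48 h it was 313.8, 293.1 and 325.8 CPM against 418.3, 292.7 and 398.1 CPM. The lines were apart without doxycycline and at 24 h, but overlapped at 48 h, where replicate 2 of APC-deleted cells, one of the libraries that stood apart, was the lowest of all 6 there. That group also had the widest spread of the gene (370 ± 67.5 CPM, SD, n = 3, against 326 ± 28.5 and 358 ± 22.8 in APC-deleted cells untreated and at 24 h). Means in APC-intact cells were 272 ± 8.66, 272 ± 24.0 and 311 ± 16.5 CPM without doxycycline, at 24 and at 48 h. By mean the order was APC-deleted at 48 h, at 24 h and untreated, then APC-intact at 48 h, at 24 h and untreated. Every pair of neighbours in it overlapped, and the highest mean was 1.36-fold the lowest. The gene lies across 4931440P22Rik on the opposite strand, which had 67 to 178 counts per library against 19694 to 37490 for Tiparp, and whether counting used strand is not given in the sources used here.

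**Figure D1:**
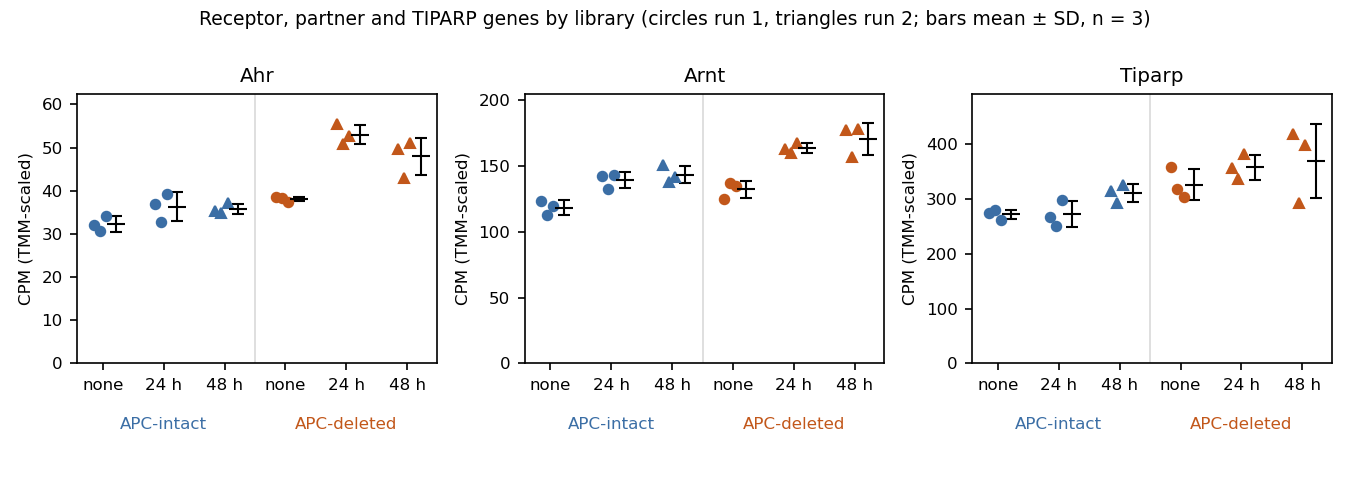
Level of Ahr, Arnt and Tiparp (y axis, CPM after TMM scaling, from 0) in each library, by line and hours of doxycycline (x axis). Circles are run 1 and triangles run 2, and the bars give the mean ± SD of 3 libraries. All 6 treated APC-deleted libraries lie above every other library for Ahr, and 1 APC-deleted library at 48 h is low for Tiparp (292.7 CPM).

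Between the untreated lines, 2 of the 3 tested genes were called, both higher in APC-deleted cells. Of all tested genes 27.3% were called there, and 13.4% were called higher. Ahr differed by a log2 fold change of 0.24 ± 0.070 (SE; adjusted p = 0.0157) and Arnt by 0.16 ± 0.058 (adjusted p = 0.0443), in edgeR's quasi-likelihood test with Benjamini-Hochberg adjustment over all tested genes, which gave every adjusted p below unless another is named. Tiparp had the largest value of the 3, 0.26 ± 0.102, but missed the threshold (adjusted p = 0.0640). It was called by DESeq2 (adjusted p = 0.0327), with the replicate block (adjusted p = 0.0328), with only these groups in the fit (adjusted p = 0.0027) and with the run as a term (adjusted p = 0.0052). Tiparp was not called with size factors in the style of DESeq2 (adjusted p = 0.0565) or without the filter (adjusted p = 0.119). Nor was it called without each library in turn (adjusted p = 0.0593 to 0.239). Its 95% interval ran from 0.05 to 0.48. All 3 genes separated the 2 groups of libraries, as did 24.5% of tested genes in the higher direction. These groups lay in the same run. The Ahr call was lost without APC-intact untreated replicate 2 (adjusted p = 0.0607), and the Arnt call without any of 4 single libraries, replicates 2 and 3 of either untreated group (adjusted p = 0.0844 to 0.162), so both rest on few libraries.

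After 48 h of doxycycline the same 2 genes were called between the lines. Ahr was higher in APC-deleted cells by 0.42 ± 0.070 on the log2 scale (1.34-fold; adjusted p = 8.7e-05) and Arnt by 0.25 ± 0.057 (adjusted p = 0.00195). So 2 of 3 were called, where 34.7% of all tested genes were called and 17.8% were called higher. Both calls held without each library in turn. Tiparp was at 0.25 ± 0.102 (adjusted p = 0.0672), and without replicate 2 of APC-deleted cells at 48 h it was at 0.39 and was called (adjusted p = 0.0003). With all libraries kept it was also called by DESeq2 (adjusted p = 0.0348) and with the replicate block (adjusted p = 0.0387). Tiparp was not called with size factors in the style of DESeq2 (adjusted p = 0.0559) or without the filter (adjusted p = 0.134). Nor was it called with only these groups in the fit (adjusted p = 0.169). The fit with the run as a term gives 1 difference between lines for all times, so its value above stands for 48 h too. These groups also lay within a single run. Ahr and Arnt separated the groups, as did 22.4% of tested genes in the higher direction. At 24 h the lines were in different runs and no test was made. All 3 genes were then higher in every APC-deleted library than in any APC-intact library, as were 21.6% of tested genes.

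With doxycycline in APC-intact cells, 1 of the 3 genes was called at each time. At 24 h, where 5.64% of tested genes were called and 1.39% were called higher, Arnt rose by 0.24 ± 0.058 (adjusted p = 0.0183). Ahr was at 0.17 (95% interval 0.02 to 0.31; adjusted p = 0.184) and Tiparp at 0.00 (interval -0.21 to 0.22; adjusted p = 0.993). This comparison lay within run 1. The Arnt call was lost without untreated replicate 2, or 24 h replicate 1 or 3 (adjusted p = 0.0549 to 0.0778), and with only these 2 groups in the fit (adjusted p = 0.0677), and Ahr was called without 24 h replicate 2 (0.25; adjusted p = 0.0305). At 48 h, where 11.3% of tested genes were called and 3.81% were called higher, Arnt rose by 0.28 ± 0.058 (adjusted p = 0.00385). Ahr was at 0.14 (adjusted p = 0.186) and Tiparp at 0.19 (adjusted p = 0.229). The 48 h comparison set run 2 against run 1. The groups did not overlap for Arnt at 24 h, as for 8.56% of tested genes in the higher direction, nor for any of the 3 genes at 48 h, as for 20.4%. With only those 2 groups in the fit, Ahr and Tiparp were called as well (adjusted p = 0.0254 and 0.001).

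In APC-deleted cells doxycycline was followed by higher Ahr and higher Arnt at both times. At 24 h, where 5.85% of tested genes were called and 2.08% were called higher, Ahr rose by 0.48 ± 0.069 (1.39-fold; adjusted p = 0.000302) and Arnt by 0.30 ± 0.057 (adjusted p = 0.00296). Tiparp was at 0.13 (interval -0.08 to 0.35; adjusted p = 0.521). At 48 h, where 11.0% were called and 4.52% were called higher, Ahr rose by 0.33 ± 0.070 (adjusted p = 0.00408) and Arnt by 0.37 ± 0.058 (adjusted p = 0.000369). Tiparp was at 0.18 (adjusted p = 0.281), and at 0.32 without replicate 2 of the 48 h group (adjusted p = 0.0055). The groups did not overlap for Ahr or Arnt at either time, as for 16.1% of tested genes at 24 h and 10.6% at 48 h in the higher direction. Both times set run 2 against run 1, as did 48 h in APC-intact cells. A fit with the line, the time and the run as additive terms gave 1 shared 24 h and 1 shared 48 h change for both lines. There Ahr was at 0.21 (adjusted p = 0.0678) at 24 h and 0.02 (adjusted p = 0.945) at 48 h, and Arnt at 0.26 (adjusted p = 0.0052) and 0.30 (adjusted p = 0.0609). The Ahr rises with doxycycline in APC-deleted cells and the Arnt rises at 48 h were therefore not called once the run was a term. The line difference was called for Ahr (0.33), Arnt (0.21) and Tiparp (0.26). The lines differed in run only at 24 h. This fit therefore cannot tell the run from a 24 h response that differs between lines. Calls lost with it do not show what the run contributed.

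Between 24 and 48 h in APC-deleted cells, both in run 2, none of the 3 genes was called. At an unadjusted p under 0.05 edgeR's quasi-likelihood test also gave 0 of the 3, and DESeq2 called none. Ahr was at -0.14 (interval -0.29 to 0.00), Arnt at 0.06 and Tiparp at 0.05, where 0.52% of tested genes were called. The difference between lines in the response to doxycycline was tested as an interaction, and no member was called at either time by edgeR or DESeq2. At an unadjusted p under 0.05 edgeR gave 1 of the 3 at 24 h and 0 at 48 h. At 24 h, where 0.00666% of tested genes were called, the difference for Ahr, APC-deleted minus APC-intact, was 0.31 (interval 0.10 to 0.51; unadjusted p = 0.00542; adjusted p = 0.980), and this crossed runs. At 48 h, where 0.0267% were called and the run cancels, the values were 0.19 for Ahr (interval -0.02 to 0.39; adjusted p = 0.760), 0.09 for Arnt and -0.01 for Tiparp. A larger response of Ahr in APC-deleted cells was therefore not shown by these tests.

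**Figure D2:**
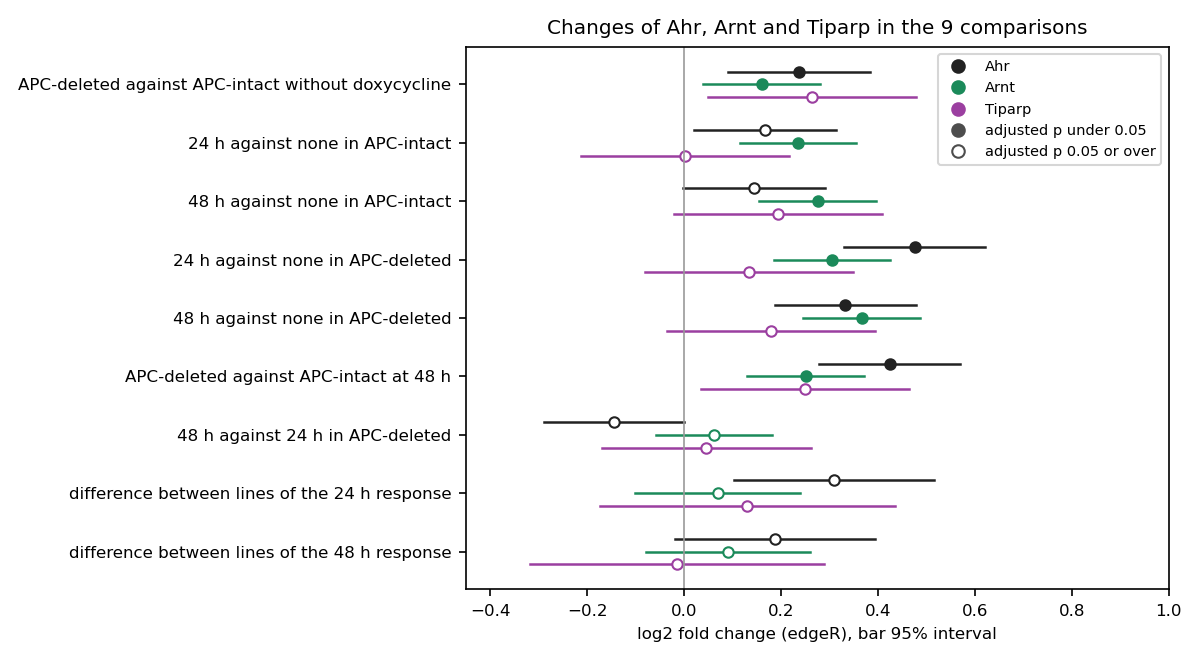
Log2 fold change of Ahr, Arnt and Tiparp (x axis) in each of the 9 comparisons (y axis) from edgeR, with the 95% interval as a bar and a filled point where the adjusted p was under 0.05. Arnt is filled in 6 comparisons and Ahr in 4, and no Tiparp point is filled. Its intervals exclude 0 only for the 2 comparisons between lines.

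Cyp1a1, the P450 gene most often used as a readout of the receptor, was close to absent, yet its few counts lay nearly all in APC-deleted cells. Untreated APC-deleted libraries had 16, 8 and 6 counts, those at 24 h had 4, 6 and 8, and those at 48 h had 8, 5 and 10. APC-intact libraries had 1, 0 and 1 counts untreated, 1, 0 and 0 at 24 h, and 0, 1 and 0 at 48 h. The lowest APC-deleted library thus had more counts than the highest APC-intact one, and all 9 APC-deleted libraries held the gene against 4 of 9 APC-intact ones. In sum, 71 counts stood against 4, a ratio of 17.2 per gene count (95% interval 6.43 to 64.9, from an exact binomial interval that covers counting error only). By time the sums were 30 against 2 without doxycycline (ratio 15.1, interval 3.84 to 131), 18 against 1 at 24 h (15.1, interval 2.38 to 628) and 23 against 1 at 48 h (24.9, interval 4.04 to 1025). With 2 counts or fewer in an APC-intact group, the size of the ratio is poorly fixed. The pooled level was 0.107 CPM in untreated APC-deleted cells, where Ahr had 38.1.

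Cyp1a1 did not pass the low count filter. In edgeR's quasi-likelihood test over all 25225 genes with a count it was higher in APC-deleted cells without doxycycline (log2 fold change 3.70 ± 0.961; adjusted p = 0.00421) and at 48 h (4.19 ± 1.08; adjusted p = 0.00289). Without the filter 14.4% and 18.6% of genes were called in these comparisons. Leaving out each library in turn kept both calls, with the adjusted p at most 0.0429 without doxycycline and at most 0.0237 at 48 h. The fitted value moved from 3.19 to 4.06 without doxycycline and from 3.74 to 6.04 at 48 h, the last without APC-intact replicate 2, which held the sole count of its group. DESeq2 gave adjusted p = 0.00882 and 0.0049. The fitted values depend on the prior count, since most APC-intact libraries had none. With doxycycline the gene was not called in either line. In APC-deleted cells it was at -0.86 ± 0.718 at 24 h and -0.30 ± 0.703 at 48 h, and in APC-intact cells both groups had 2 counts or fewer, so no change could be seen at this depth.

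The other 3 genes were too low to compare. Aldh3a1, an aldehyde dehydrogenase gene induced through the receptor in several tissues, had 20, 4 and 2 counts in untreated APC-deleted libraries and 4, 9 and 2 in untreated APC-intact ones. It had 0 to 6 counts in every other library. The replicate with 20 counts was also the highest of all libraries for Cyp1a1. Summed over times, Aldh3a1 had 41 counts in APC-deleted cells and 29 in APC-intact ones (ratio 1.37, interval 0.831 to 2.29). Ahrr, whose protein competes with the receptor for ARNT, had 8 against 9 counts (ratio 0.861, interval 0.289 to 2.51), with 0 to 3 per library. Cyp1b1, a P450 gene that also acts on oestrogens, had 4 against 3 counts (ratio 1.29, interval 0.219 to 8.82), with 0 to 2 per library. In untreated APC-deleted cells its 0 counts in 3 libraries allow a level of up to 0.0107 CPM (3 counts). Without the filter none of these 3 genes was called in any of the 9 comparisons. The share of all genes called without it was 14.4% and 18.6% between lines untreated and at 48 h, 2.78% and 5.73% for the 24 and 48 h responses of APC-intact cells and 2.94% and 5.75% in APC-deleted cells. It was 0.385% between times and 0.00396% and 0.0555% for the differences in response. The lowest unadjusted p, 0.0113 and the sole one under 0.05, was that of Aldh3a1 at 24 h in APC-deleted cells (26 counts untreated and 5 at 24 h; adjusted p = 0.182).

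**Figure D3:**
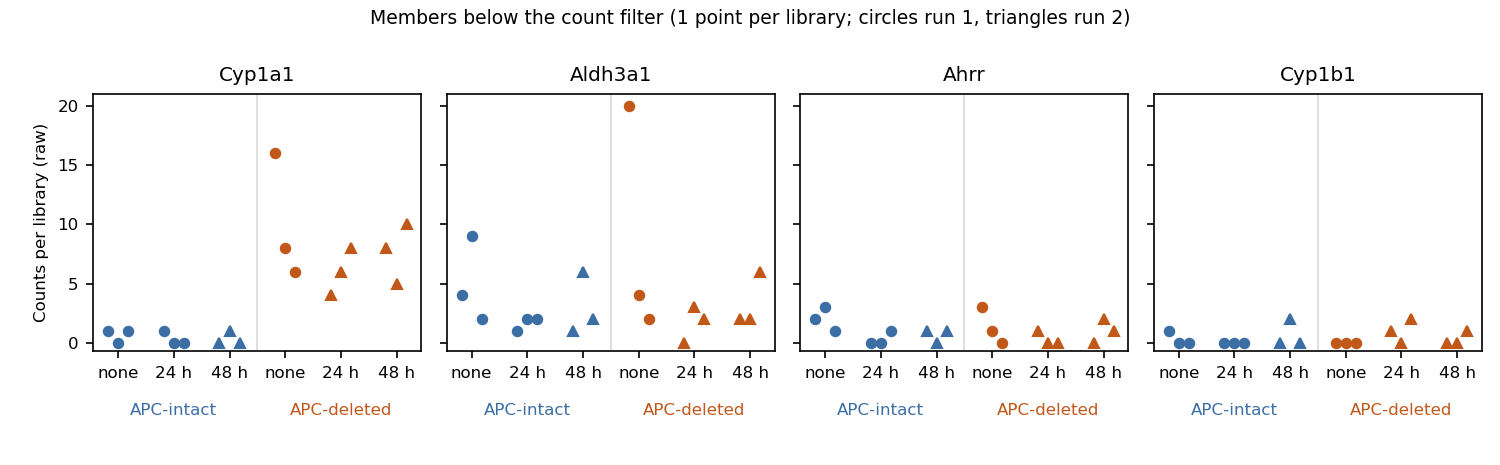
Raw counts per library (y axis, linear) of the 4 genes below the count filter, by line and hours of doxycycline (x axis), with circles for run 1 and triangles for run 2. APC-deleted libraries have 4 to 16 counts of Cyp1a1 and APC-intact ones 0 or 1. Aldh3a1 reaches 20 counts in a single library, and Ahrr and Cyp1b1 stay at 3 or fewer.

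The rest of the pathway was read from 5 lists of 61 genes, of which 43 were tested. Among the 10 tested of 16 other genes reported as receptor targets, 3 were higher and 2 lower in untreated APC-deleted cells, and 4 and 2 at 48 h. Over all tested genes 13.4% and 17.8% were called higher, and 27.3% and 34.7% in either direction. Their median log2 fold changes were 0.01 and 0.03, beside 0.00 for all tested genes in both comparisons. Nqo1, a quinone reductase gene that NRF2 also drives, was at 245 ± 10.2 CPM in untreated APC-deleted and 98.8 ± 2.69 CPM in APC-intact cells (SD, n = 3; log2 fold change 1.31 ± 0.051; adjusted p = 1.3e-13), and it was higher at 48 h by 1.44 ± 0.052 (adjusted p = 3.3e-14). Gsta4, a glutathione transferase gene, was at 33.5 ± 1.28 against 4.62 ± 0.509 CPM (2.86 ± 0.098; adjusted p = 1.8e-14). Ptgs2, which encodes cyclooxygenase-2, was higher by 0.38 ± 0.087 untreated (adjusted p = 0.00247) and by 0.52 ± 0.087 at 48 h of doxycycline (adjusted p = 0.000116). Lpcat2, a lysophospholipid acyltransferase gene, went the other way, with 1362 counts in the 3 untreated APC-intact libraries and 14 in the APC-deleted ones (-6.55 ± 0.336; adjusted p = 9.5e-12). For the difference between lines in the 48 h response, neither edgeR nor DESeq2 called any gene of the list. In edgeR 0.0267% of all tested genes were called there. Other genes of the list had few counts. Cyp1a2 and Il22 had 0 to 1 counts, Gsta1 0 to 8 and Serpinb2 0 to 9 per library. Summed by group (untreated, 24 and 48 h), Gsta1 had 14, 11 and 18 counts in APC-deleted and 0, 7 and 5 in APC-intact cells. Serpinb2 had 0, 3 and 2 against 5, 2 and 15.

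With doxycycline no tested gene of that list rose in edgeR's quasi-likelihood test or in DESeq2, and at an unadjusted p under 0.05 2 rose in APC-deleted cells at 24 h and 0 in the other 3 comparisons. In APC-intact cells 1 of 10 fell at 24 h and 2 at 48 h, and in APC-deleted cells 1 and 4. Over all tested genes 5.64%, 11.3%, 5.85% and 11.0% were called in these comparisons. Of the 48 h calls, that of Gsta4 in APC-intact cells was lost with the run as a term and without each of 4 of the 6 libraries in turn. Those of Areg, Ereg and Slc7a5 in APC-deleted cells were lost with the run as a term and with only the groups compared, so Nqo1 alone kept its call there under both. Nqo1 fell in all 4 comparisons, by 0.58 ± 0.051 and 0.43 ± 0.051 in APC-intact cells (24 and 48 h) and by 0.43 ± 0.050 and 0.31 ± 0.050 in APC-deleted cells (adjusted p = 1.4e-06, 9.2e-06, 3.0e-05 and 0.000518). Ahr and Arnt thus rose in APC-deleted cells in the same libraries in which Nqo1 fell. Medians of the list in these comparisons were -0.06, -0.18, -0.04 and -0.26, beside 0.00 over all tested genes.

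Of the receptor's cytoplasmic complex, 5 of 6 listed genes were tested. Src, a tyrosine kinase gene whose product is held in that complex, rose at 24 h in APC-intact cells from 126 ± 2.14 to 162 ± 4.89 CPM (SD, n = 3; 0.36 ± 0.050; adjusted p = 0.000203). In APC-deleted cells it rose from 111 ± 1.80 to 164 ± 1.91 CPM (0.56 ± 0.050; adjusted p = 1.2e-06). By edgeR no gene of the complex fell at 24 h in either line. At an unadjusted p under 0.05 2 fell in APC-intact cells, of which DESeq2 called 1. Hsp90ab1, the gene of the chaperone that holds the receptor, fell at 48 h in APC-intact cells by 0.13 ± 0.040 (adjusted p = 0.0484), and that call was lost without each of the 6 libraries in turn. At 48 h Src rose by 0.20 ± 0.050 and 0.41 ± 0.050 (adjusted p = 0.0163 and 3.0e-05), and neither call held with the run as a term (0.21; adjusted p = 0.227). The 48 h call in APC-intact cells was also lost without each of 4 of the 6 libraries in turn, and that in APC-deleted cells without 0 of 6. Counts for the complex were 0 higher and 1 lower between untreated lines and 0 called at 48 h between lines, where DESeq2 and an unadjusted p under 0.05 each gave 1 higher. Over all tested genes edgeR called 27.3% and 34.7% in these 2 comparisons. With doxycycline it called 5.64% and 11.3% in APC-intact and 5.85% and 11.0% in APC-deleted cells (24 and 48 h).

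Of the 13 bHLH-PAS relatives 8 were tested. In untreated APC-deleted cells 2 were higher, Arntl and Npas3, and at 48 h 4 were higher, Arntl, Npas3, Arntl2 and Epas1. Over all tested genes 13.4% and 17.8% were called higher. The untreated calls were lost without APC-intact replicate 3 for Arntl (adjusted p = 0.0692), and without each of 4 of the 6 libraries in turn and without the filter for Npas3. At 48 h those of Npas3, Arntl2 and Epas1 were lost with only the groups compared and without each of 2, 2 and 3 single libraries in turn. Arntl, the clock gene also named Bmal1, was higher by 0.27 ± 0.045 at 48 h (adjusted p = 0.000107), and this call held in every alternative run. With doxycycline Arntl fell at 48 h in APC-intact cells (-0.22 ± 0.045; adjusted p = 0.00346, and 0.0662 with the run as a term). From 24 to 48 h in APC-deleted cells it fell by 0.20 ± 0.045 (adjusted p = 0.0465), a call lost without each of 5 of the 6 libraries in turn. Epas1, a hypoxia factor gene, rose at 24 h in APC-deleted cells (0.63 ± 0.178; adjusted p = 0.0395), a call also lost without each of 5 of the 6 libraries in turn and with the run as a term. Arnt2, a close relative of Arnt, fell by 48 h of doxycycline, the opposite of Arnt. It went from 1.96 ± 0.125 to 1.26 ± 0.139 CPM in APC-intact cells (-0.64 ± 0.159; adjusted p = 0.0134) and from 1.79 ± 0.366 to 1.14 ± 0.0612 CPM in APC-deleted cells (-0.65 ± 0.161; adjusted p = 0.0134). Each of those calls was lost without either of 2 single libraries (APC-intact untreated replicate 2 or 48 h replicate 1; APC-deleted untreated replicate 1 or 48 h replicate 3), and the one in APC-deleted cells also with only those 2 groups in the fit.

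All 12 coregulator genes were tested. The coactivator gene Ncoa3 was higher in APC-deleted cells, at 152 ± 7.64 against 121 ± 8.54 CPM untreated (0.33 ± 0.071; adjusted p = 0.00176), and the gap was 0.37 ± 0.071 after 48 h (adjusted p = 0.000477). In all, 2 of the 12 were higher and 1 lower between untreated lines, and 2 were higher at 48 h, shares near or under the 27.3% and 34.7% called over all tested genes. With doxycycline edgeR called none. Of all tested genes it called 5.64% and 11.3% in APC-intact and 5.85% and 11.0% in APC-deleted cells (24 and 48 h). At an unadjusted p under 0.05 there were 2 and 5 coregulator genes (24 and 48 h) in APC-intact and 2 and 1 in APC-deleted cells. DESeq2 called 1 and 3 in APC-intact and 0 in APC-deleted cells. Of the 15 genes of tryptophan breakdown and transport, which supply kynurenine and related ligands, 9 were tested. In APC-deleted cells 1, Ccbl2, the kynurenine aminotransferase gene also named Kyat3, was higher untreated (20.8 ± 0.467 against 17.7 ± 0.686 CPM; 0.24 ± 0.058; adjusted p = 0.00436) and at 48 h (0.28 ± 0.058; adjusted p = 0.000717). Between lines at 48 h DESeq2 called 2 of the 9 higher and 1 lower. An unadjusted p under 0.05 gave 4 there, of which 2 were higher. Ido1, the other main enzyme that opens the route, had 0 to 4 counts per library, and Kynu, the kynureninase gene, 0 to 1. With doxycycline neither edgeR nor DESeq2 called any of the 9 at 24 h, and an unadjusted p under 0.05 gave 1 in APC-intact and 0 in APC-deleted cells. At 48 h the amino acid transporter genes Slc3a2 in APC-intact cells (-0.17 ± 0.049; adjusted p = 0.0333) and Slc7a5 in APC-deleted cells (-0.22 ± 0.052; adjusted p = 0.0087) fell. With the run as a term the values were -0.19 and -0.25, and neither was called. The Slc3a2 call was also lost without the filter and without each of 5 of the 6 libraries in turn, and that of Slc7a5 with only the groups compared (adjusted p = 0.0918) and without untreated replicate 1.

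**Figure D4:**
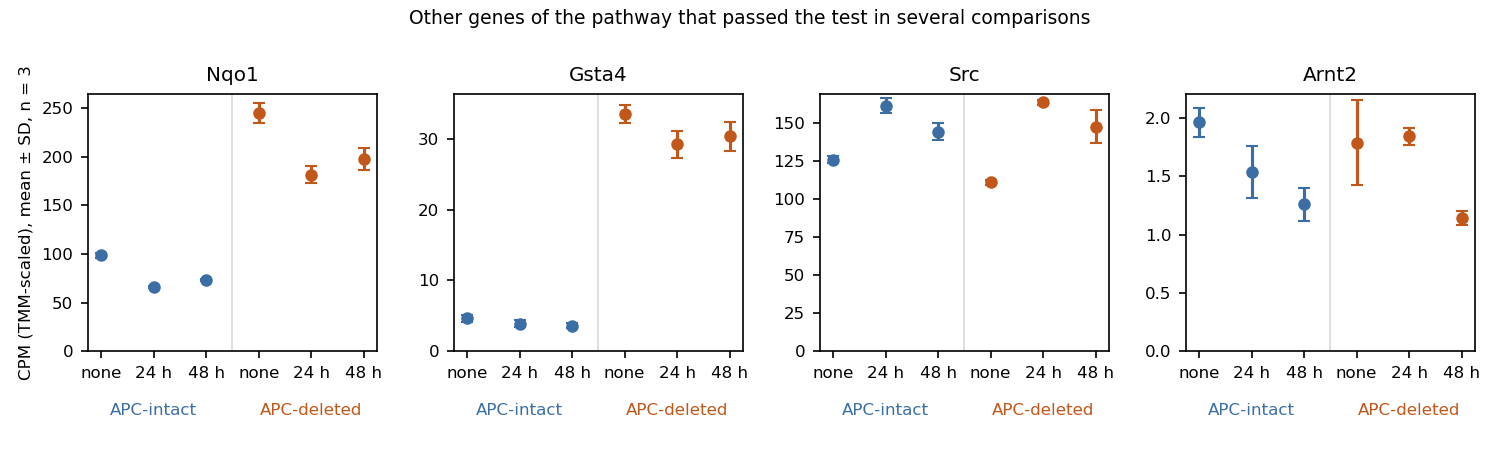
Mean ± SD (n = 3) of CPM (y axis, from 0) for Nqo1, Gsta4, Src and Arnt2 by line and hours of doxycycline (x axis). Nqo1 and Gsta4 are higher in all 3 APC-deleted groups, Src is highest at 24 h in both lines, and Arnt2 is lowest at 48 h.

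Across the 18 libraries, log2 CPM of Ahr and Arnt had a Pearson correlation of 0.878, Ahr and Tiparp of 0.809, and Arnt and Tiparp of 0.735. These are descriptions over libraries that share lines, treatments and runs. Among 11434 genes of at least 1 CPM on average, the genes most like Ahr were Epb4.1, which encodes the membrane skeleton protein 4.1R (0.944), Adam17, the gene of a sheddase (0.944), and Cdyl, a chromatin reader gene (0.943). Epb4.1 and Adam17 shared with Ahr a peak in APC-deleted cells at 24 h, at 121 ± 1.06 and 269 ± 3.89 CPM (SD, n = 3). The genes most like Arnt were Scpep1, Il17rd and Map4k3 (0.966, 0.966 and 0.965), and those most like Tiparp were Phf16, Dstyk and Kitl (0.947, 0.939 and 0.938).

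Other values moved with these comparisons. The summed level of the 8 fibroblast markers was 504 to 538 RPKM in untreated APC-intact libraries, 421 to 428 at 24 h and 386 to 396 at 48 h, and 582 to 644, 478 to 499 and 449 to 470 RPKM in APC-deleted ones, of which Thy1 had 0 to 1 counts. The 7 haematopoietic markers summed to 9.36 to 10.7 RPKM in untreated APC-intact libraries, 7.14 to 7.43 at 24 h and 6.29 to 6.93 at 48 h, and to 11.3 to 14.2, 9.31 to 9.93 and 7.90 to 11.4 RPKM in APC-deleted ones. Nearly all of that came from Cd68 (800 to 2060 counts) and Lyz2 (35 to 156), while Ptprc, Cd3e and Itgam had at most 5 counts and Adgre1 had 0. The 4 endothelial markers summed to 0.932 to 1.07 RPKM in untreated APC-intact and 0.459 to 0.649 in untreated APC-deleted libraries, and the 10 epithelial ones to 1.41 to 1.69 against 2.29 to 2.34 RPKM. Reads in no annotated gene took 5.56, 6.21 and 6.59% of entries on average in APC-intact cells without doxycycline, at 24 and at 48 h, and 4.81, 5.43 and 5.67% in APC-deleted cells. The fibroblast and haematopoietic sums were thus higher in untreated APC-deleted cells, as Ahr and Arnt were, and the fibroblast sum was lower with doxycycline where they rose. The part of these values in the results was not tested. The hepatocyte markers, whose tissue has high Cyp1a1 when the receptor is active, had 0 to 2 counts each. In bulk RNA, fewer cells of a kind and less RNA per cell cannot be told apart.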

How the data were processed

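RNA of 18 MC38 libraries was grouped by title into 2 lines and 3 doxycycline conditions. Per gene, the authors deposited whole-number counts and an RPKM column, made with STAR, HTSeq and mm10 per the submitters' processing notes. Versions, strand use and annotation release are not given in the sources used here. The deposited RPKM equals the count scaled by exon length and by the library's total over all entries, those naming no gene included, and it was used here only to set genes beside each other. Entries naming no gene (22.9 to 25.5% of each library) were left out of library sizes.

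The test of the counts was that of edgeR 4.0.16 (R 4.3.3; TMM scaling, filterByExpr, glmQLFit with robust estimation, glmQLFTest, 1 coefficient per group over all 18 libraries), adjusted by Benjamini and Hochberg over 15006 genes with a threshold of 0.05. The common biological coefficient of variation was 8.3%. Each SE of a log2 fold change is its absolute value divided by the square root of the F statistic of that test. The 95% intervals of log2 fold changes were built from this SE, so for genes with few counts both are approximate. Genes under the filter were compared by summed counts with exact intervals, which cover counting error only, and in a fit without the filter. Figures and tables used Python 3.11.15. The steps were tested on simulated data. The members and lists were chosen with earlier results of these data known. The text names all 7 members, up to 4 called genes of smallest adjusted p per list and comparison, with any gene needed to describe a list, and the 3 genes most like each tested member by Pearson correlation of log2 CPM with a prior count of 2.

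Alternatives were DESeq2 1.42.0, its style of size factors within edgeR, a fit without the filter, a replicate block, only the groups compared, the run as a term (an additive fit with 1 line effect for all times and 1 time effect for both lines), both libraries that stood apart left out and each library left out in turn. The run term cannot be told apart from a 24 h response that differs between lines. For Cyp1a1, no filter together with DESeq2 or with each library left out was added after seeing the data.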

Additional observations from a re-analysis of the deposited data

How the results depend on the processing

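Whether replicate numbers pair the samples is not stated and was not settled by correlation. The values correlated were deviations of log2 CPM from the group mean of each gene. In these deviations same-numbered libraries correlated at -0.0884 to 0.116 in the 7 simple comparisons. Of 6 libraries, 2 to 4 matched their own number best. Over all pairs of groups, same-numbered libraries had a median of 0.0203 and a maximum of 0.237. Libraries of other numbers had -0.0156 and 0.103. With the number as a replicate block, Tiparp was also called between the lines untreated (adjusted p = 0.0328) and at 48 h (adjusted p = 0.0387), so that 3 members were called in each. The block changed no other call of a member. DESeq2 also called Tiparp there (adjusted p = 0.0327 and 0.0348). Tiparp, at 0.00 in APC-intact cells at 24 h, was at -0.0024 with the block, -0.0011 with the run as a term (the same value stands for 24 h in APC-deleted cells) and -0.069 to 0.066 without each library. Between times in APC-deleted cells it ranged from -0.054 to 0.19 and for the 48 h difference from -0.12 to 0.13, with 0.11 without the libraries that stood apart.

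Members called without each library ranged from 0 to 2 between untreated lines and for APC-intact cells at 24 h. With only the groups compared, in that line they were 0 after 24 h and 3 after 48 h. With the run as a term they were 0 at 48 h in either line and 1 at 24 h in APC-deleted cells. That fit gives no value for the differences between lines. Genes called, in the order of lines untreated, 24 h and 48 h in APC-intact, 24 h and 48 h in APC-deleted cells, were 4090, 846, 1703, 878 and 1653. With the run as a term they were 6601 for the lines and 347 at 48 h. With only the groups compared they were 259, 4355, 2456 and 422 for the 4 doxycycline comparisons. DESeq2 called 1388 at 24 h in APC-deleted cells. Without the libraries that stood apart 3016 were called at 48 h there. Without each library the ranges were 368 to 1250, 824 to 1373, 429 to 521 and 865 to 2806, the last without APC-deleted 48 h replicate 2. The 368 came without APC-intact untreated replicate 1, beside 374 without replicate 2, 465 without 24 h replicate 1 and 1250 without 24 h replicate 2. Between times the 78 genes became 191 (DESeq2), 25 (only the groups), 134 (run), 225 (without the libraries that stood apart) and 47 (without 24 h replicate 2) to 190 (without 48 h replicate 2). The 1 gene of the 24 h difference became 5 with DESeq2 and 1 to 2 without each library, and the 4 of the 48 h difference became 57 (DESeq2), 14 (no filter), 0 (only the groups), 2 (without those libraries) and 0 to 3. The causes were not tested.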
